A study of Oryza sativa Indica Group with 12 samples.

Results

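The DNA replication and cell cycle genes of rice were followed in whole IR64 seedlings, taken without their seeds, through a change of potassium supply. A gene was included when its RefSeq symbol or synonym began with MCM, ORC, RFC or RPA and a digit, was PCNA, or began with CYCA, CYCB, CYCD or CDKA to CDKG. By these names 60 genes were found, and 53 of them had a probe set that names 1 gene, out of 17905 such genes on the Affymetrix rice array. No expression value entered this rule, although it was set with earlier results of these data known. For the 11 genes with several probe sets, the probe set with the highest mean over all 12 arrays was used. The 7 genes without a probe set of their own were CDKB1-1, CDKC-2, CDKF-2, CYCA3-1, CYCB1-5, CYCD2-1 and ORC6, and they are not analysed here.

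All seedlings of the indica cultivar IR64 were first grown in hydroponic medium with 0.409 mM K2SO4 for 5 days, and the 0h group was taken at that point. KP seedlings (potassium plus) then spent 5 more days with 0.409 mM K2SO4, and KM seedlings (potassium minus) spent the same 5 days with 0 mM. KR seedlings (potassium resupply) were treated as KM and then returned to 0.409 mM K2SO4 for 6 h. Each group held 3 biological replicates, 1 array each.

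When a plant cell copies its DNA, the origin recognition complex (ORC) marks the starting sites and the ring of MCM proteins is loaded there as the helicase that opens the double strand. RPA coats the single strands, RFC loads the PCNA ring, and PCNA holds the polymerases on the template. Cyclins of type D bring cells out of rest, those of type A act in S and G2 phase, and those of type B act at mitosis, each by binding a cyclin-dependent kinase (CDK). In a grass seedling such cells lie mainly in root tips, lateral root primordia, the shoot apex and the base of young leaves.

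Values are log2 of the deposited intensity, and a change is the difference of 2 group means with the standard error (SE) of limma. To be called higher or lower, a gene had to change by 2-fold or more with an adjusted p (Benjamini-Hochberg) below 0.05. A group mean under 4 on the log2 scale was taken as near background, which held for 1 of the 53 genes in 0h and for 5 in each of KP, KM and KR. Replicate arrays correlated at r = 0.993 to 0.998 across all probe sets. The 3 KR arrays had medians of 2.79 to 2.84 and the remaining 9 had medians of 2.70 to 2.75, so small rises in KR are set against all probe sets below. Array intensities depend on the probes, so levels are not compared between genes.

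In seedlings kept on potassium, 18 of 26 replication genes and 3 of 4 B cyclins were lower at the end of the 5 days than at 0h. In KP against 0h, 28 of the 53 genes were lower and 1 was higher, while 24 were not called. Over all 57194 probe sets tested 5.72% were lower and 5.88% were higher, and over the 22197 with a group mean of at least 4 the shares were 14.3% and 14.9%. The median change of the 53 genes was -1.07 on the log2 scale, against -0.01 over all probe sets. Genes that copy DNA made up 18 of the 28, cyclins 9 and CDKs 1. In RNA from whole seedlings, fewer dividing cells and less RNA of these genes in each cell cannot be told apart.

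The MCM genes, which encode the helicase, were lower nearly throughout. Of the 8 genes 7 were called lower in KP than in 0h, with a class median of -2.09. MCM9 was among them, with a KP mean of 3.23, near background. MCM3, a subunit of the helicase ring, fell the most within the class. Its 0h arrays read 9.26, 9.11 and 9.00, and its KP arrays read 6.60, 6.95 and 6.83. The change was -2.33 ± 0.09 (SE, n = 3 arrays per group), a 5.03-fold fall, with an adjusted p of 2.91e-07 from limma. No KP array came within 2 log2 units of the lowest 0h array. The other ring subunits, MCM2, MCM4, MCM5, MCM6 and MCM7, changed by -1.92 to -2.25. MCM8, which acts with MCM9 in recombination in animals, was near background in every group, at 2.58 to 2.63 in 0h and 2.57 to 2.59 in KP, and gave no change to measure.

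Among the ORC genes 4 of 5 were lower, with a class median of -1.20. ORC1, the largest subunit, read 6.95, 7.10 and 7.31 in 0h and 4.59, 4.80 and 4.83 in KP. This was a change of -2.38 ± 0.12 with an adjusted p of 8.91e-07 from limma, and the groups lay far apart. ORC2 was the exception. Its arrays read 6.82, 6.91 and 6.96 in 0h and 6.96, 6.97 and 6.80 in KP, so the groups overlapped, and the change was 0.01 ± 0.13. On their second probe sets ORC4 and MCM9 changed by -0.58 and -0.93, neither of them called.

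PCNA, the sliding clamp, was lower as well. It read 9.85, 9.86 and 9.63 in 0h against 8.16, 8.66 and 8.79 in KP, a change of -1.24 ± 0.17 (adjusted p = 0.000327, limma). The RFC genes, which encode the loader of that clamp, moved less, with a class median of -0.94 and 2 of 5 genes called. RFC4 fell from 7.98, 7.58 and 7.82 to 6.26, 6.37 and 6.36, a change of -1.46 ± 0.12. RFC3 changed by -0.33 ± 0.14, which did not pass (adjusted p = 0.135, limma), although its KP arrays at 6.90, 6.94 and 6.93 lay below all 0h arrays at 7.08, 7.45 and 7.24.

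The RPA family divided by gene rather than by subunit size. RPA70B, a large subunit, read 9.09, 8.98 and 9.00 in 0h and 6.44, 7.00 and 6.70 in KP, a change of -2.31 ± 0.17. RPA32A and RPA70C changed by -1.63 and -1.67, and RPA32C by -1.15 with its KP mean near background. RPA32B, a middle subunit, read 7.68, 7.93 and 7.77 in 0h and 7.56, 7.50 and 7.55 in KP, a change of -0.25 ± 0.08 that was under 2-fold. In all, 4 of 7 RPA genes were called lower.

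**Figure D1:**
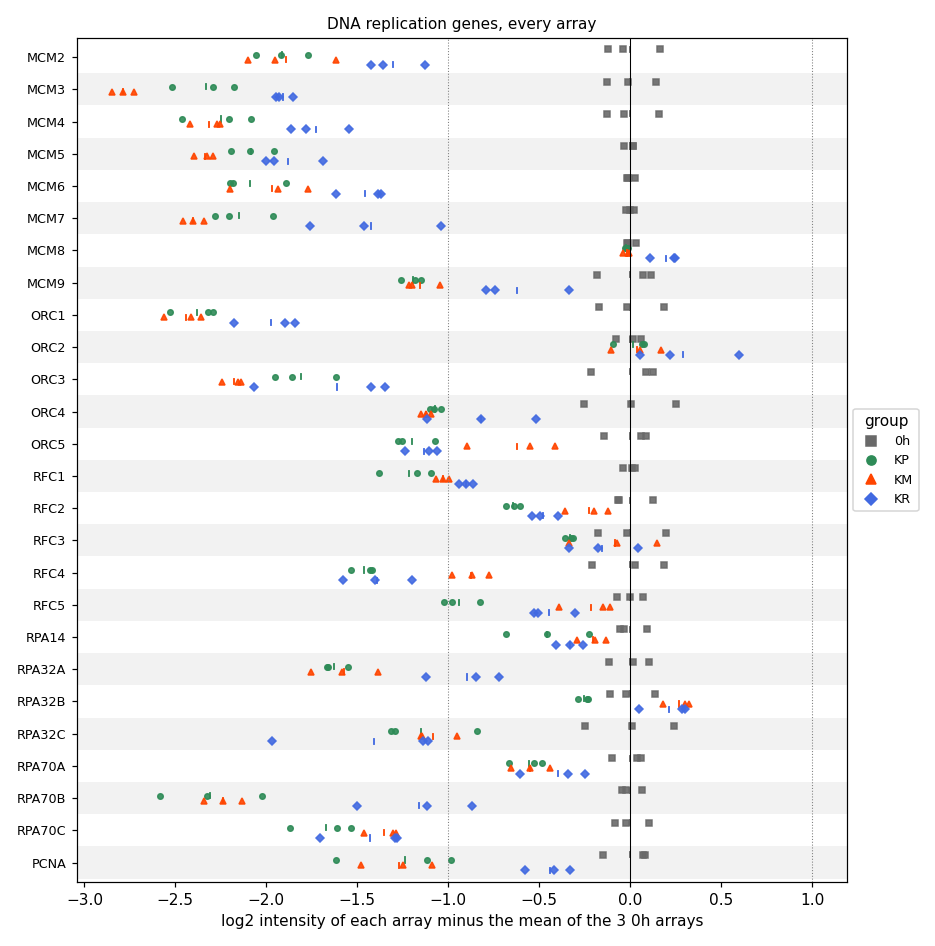
The 26 DNA replication genes, with each array's log2 intensity minus the mean of the gene's 3 0h arrays on the x axis (grey squares 0h, green circles KP, red triangles KM, blue diamonds KR; short bars are group means, dotted lines mark 2-fold). KP and KM lie left of the 0h arrays for MCM2 to MCM7 by 1.89 to 2.79 in the mean, and the KR means of these genes lie between those groups and 0h.

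Most cyclins of type A and B were lower too. CYCA3-2, a member of the A3 group expressed in S phase in other plants, read 7.40, 7.32 and 7.05 in 0h and 4.57, 4.91 and 5.10 in KP. Its change of -2.40 ± 0.21 was the most negative of the 53 genes (adjusted p = 2.29e-05, limma). CYCA2-1 changed by -2.38, whereas CYCA1-4 changed by -0.17 ± 0.11, with 6.36, 6.31 and 6.10 in 0h and 6.10, 5.89 and 6.25 in KP, and its groups overlapped. Of the B cyclins, which drive entry into mitosis, CYCB2-2 read 10.12, 10.16 and 10.37 in 0h and 8.44, 8.48 and 8.82 in KP, a change of -1.64 ± 0.12. CYCB1-1 and CYCB2-1 were also called, at -1.58 and -1.12. CYCB1-3 was at 4.06, 4.08 and 4.25 in 0h and at 3.15, 3.48 and 3.54 in KP, so that its change of -0.74 ± 0.09 ended near background.

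The D cyclins, which link growth signals to the start of the cycle, did not move as a block. Of 9 genes 4 were lower, 1 was higher and 4 were not called. CYCD2-2 read 7.33, 7.38 and 6.83 in 0h and 5.50, 5.49 and 5.40 in KP, a change of -1.72 ± 0.13 (adjusted p = 8.30e-06, limma). CYCD5-1 went the other way and was the only 1 of the 53 genes called higher. It read 4.31, 4.40 and 4.07 in 0h and 5.32, 5.28 and 5.55 in KP, a change of 1.12 ± 0.17 (adjusted p = 0.000747, limma). CYCD5-2 was at 6.50, 6.83 and 6.89 in 0h and 6.56, 6.69 and 6.99 in KP, with overlapping groups and a change of 0.00 ± 0.13. A second probe set of CYCD5-2 disagreed, with a change of -1.10 that was called lower. For 7 of the 9 D cyclins the lowest 0h array was replicate 3, as it was for 20 of the 53 genes. For CYCD6-1 that array read 6.77 beside 7.51 and 7.42.

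The kinases moved least. Among 11 CDK genes only CDKB2-1, of the plant-specific type B made around G2 phase and mitosis, was called lower in KP. It read 8.51, 8.36 and 8.67 in 0h and 6.72, 6.92 and 7.01 in KP, a change of -1.63 ± 0.11 (adjusted p = 4.15e-06, limma). CDKA-1 and CDKA-2, of the type that acts through the whole cycle, changed by -0.29 ± 0.12 and -0.19 ± 0.16, and their groups overlapped. For CDKA-2 a second probe set disagreed, with a change of -0.69 ± 0.14 and no overlap (adjusted p = 0.00456, limma). That fall was under 2-fold and was not called. Another probe set of CDKA-2 changed by -0.12 ± 0.16, with overlapping groups. CDKC-1, of a type that acts on RNA polymerase II, read 5.80, 5.78 and 5.79 in 0h and 5.77, 5.85 and 5.69 in KP, a change of -0.02 ± 0.09. CDKF-1 and CDKF-4 lay just inside the 2-fold limit, at 0.99 and -0.98. A second probe set of CDKF-4 disagreed, with a change of 0.17 and overlapping groups. The class median was -0.19.

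**Figure D2:**
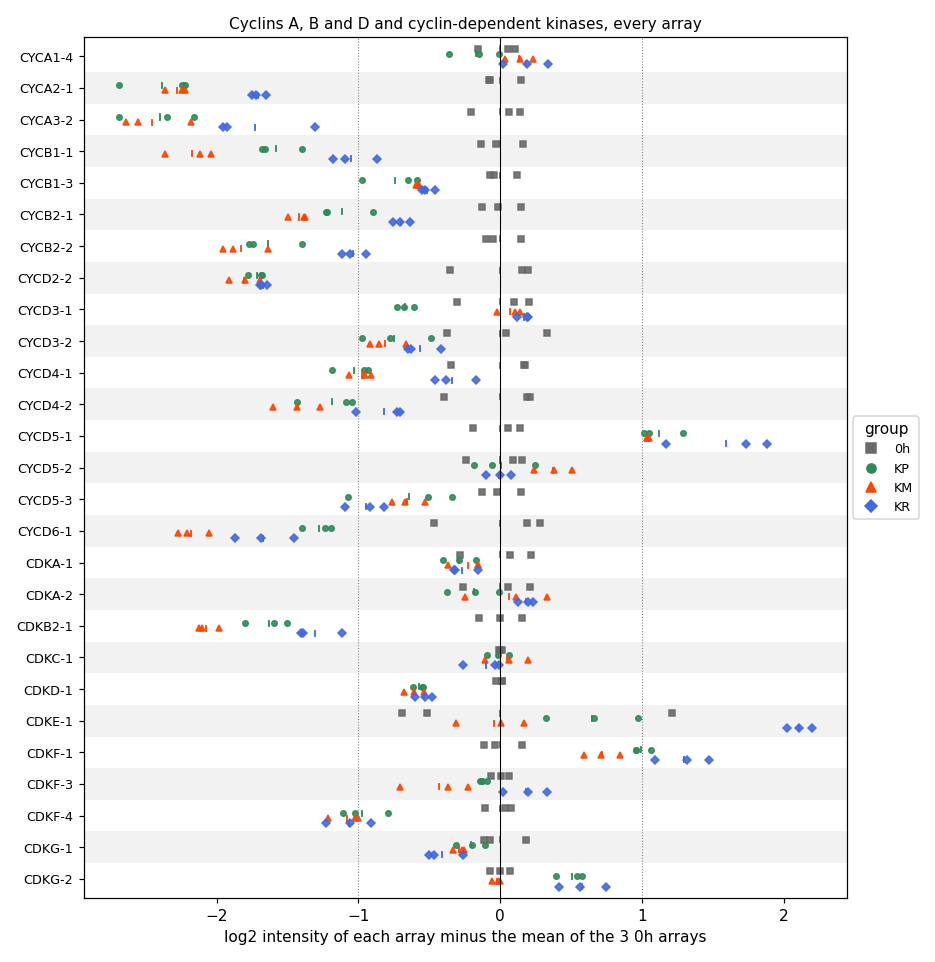
The 16 A, B and D cyclins and 11 CDKs, with each array's log2 intensity minus the mean of the gene's 3 0h arrays on the x axis (symbols for the groups as in the plot of replication genes, short bars are group means, dotted lines mark 2-fold). CDKB2-1 is the CDK whose KP and KM arrays lie beyond 2-fold below 0h by a wide margin, while CYCD5-1 lies above 0h.

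After the same 5 days without potassium, in KM against 0h, 26 of the 53 genes were lower and 1, again CYCD5-1, was higher, where 5.94% and 6.2% of all probe sets, and 14.9% and 15.6% of those with a group mean of at least 4, were lower and higher. Both comparisons use the same 0h arrays, and 25 genes were lower in both, as were 2404 of the 3269 probe sets lower in KP and the 3399 lower in KM. ORC5, RFC4 and CYCD4-1 were called lower only in KP, where they changed by -1.20, -1.46 and -1.03, against -0.62, -0.87 and -0.98 in KM. The KP mean of ORC5, 3.70, was near background. CDKF-4 was called only in KM, at -1.08 against -0.98. For CYCD4-1 and CDKF-4 the gap between those pairs of values was 0.05 and 0.10, with adjusted p of 1 and 0.905 for KM against KP in limma. A second probe set of CDKF-4 had means of 6.07 in 0h, 6.24 in KP and 5.99 in KM, and was not called lower in KM. CYCD5-1 lay close to the limit in KM, where its change was 1.04 ± 0.17. That call was lost with quantile normalization, at 0.98, and without 0h replicate 3, at 0.94.

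The direct comparison of KM with KP asks what lack of potassium did to seedlings of 1 age. None of the 53 genes was called, where 1.59% of all probe sets were lower and 0.955% were higher in KM (4.04% and 2.34% of those with a group mean of at least 4). Of the 53 genes 20 had an unadjusted p under 0.05, a count not set against all probe sets here. The test of the study's methods, run on the same values, also called none. At an adjusted p under 0.05 with no fold limit, 5 were lower and 6 were higher in KM, where 4.35% and 6.11% of all probe sets were. The 95% interval of the change lay inside 2-fold either way for 51 genes. The exceptions were CYCD6-1, with an interval of -1.33 to -0.48, and CDKE-1, with an interval of -1.68 to 0.30. The mean change was positive in 27 genes and negative in 26.

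The genes that passed with no fold limit differed in role, and those described here were chosen after their values were seen, except MCM3, CYCB1-1, CDKB2-1, RPA32B and RFC4. Lower in KM were CYCB1-1, CYCD6-1, MCM3, CDKB2-1 and CDKG-2. CYCB1-1 read 6.84, 6.91 and 6.59 in KM against 7.30, 7.27 and 7.56 in KP, a change of -0.60 ± 0.12 (adjusted p = 0.0146, limma). CYCD6-1, whose Arabidopsis counterpart acts in the formative divisions of the root, read 5.18, 4.96 and 5.03 in KM against 6.04, 5.84 and 6.00 in KP, the largest fall of the 53 in size at -0.90 ± 0.19 (adjusted p = 0.015, limma). For both genes no KM array reached the lowest KP array. The other 3, MCM3, CDKB2-1 and CDKG-2, changed by -0.46, -0.44 and -0.53.

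Higher in KM were 3 of the 5 genes of the clamp loader. RFC5 read 6.90, 7.14 and 7.18 in KM and 6.31, 6.27 and 6.46 in KP, a change of 0.73 ± 0.09 (adjusted p = 0.00125, limma). RFC4 read 6.81, 7.02 and 6.92 against 6.26, 6.37 and 6.36, a change of 0.59 ± 0.12 (adjusted p = 0.0123, limma), and RFC2 changed by 0.42 ± 0.07 (adjusted p = 0.00586, limma). KM arrays lay above all KP arrays in these 3 genes. RFC1 and RFC3 had mean changes of 0.19 and 0.25 that did not pass, so that the class median was 0.42, against 0.00 over all probe sets. ORC5, RPA32B and CYCD3-1 were the others, at 0.58, 0.52 and 0.75, with the KP mean of ORC5 near background. RPA32B read 7.97, 8.09 and 8.11 in KM, above the 0h arrays as well.

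The class median of MCM was -0.03, with 4 genes on either side of 0. MCM3, at -0.46, was the 1 of the 8 that passed with no fold limit, and MCM5 and MCM7 changed by -0.26 and -0.25 and did not pass. PCNA read 8.30, 8.69 and 8.53 in KM against 8.16, 8.66 and 8.79 in KP, a change of -0.03 ± 0.17 with overlapping groups and a 95% interval of -0.41 to 0.34. RPA70B changed by 0.07 ± 0.17, and ORC1 by -0.06 ± 0.12. KM against KP in the whole-seedling samples also held shifts in some root and leaf markers. Of 10 root marker genes 3, all of them aquaporin genes, were called lower in KM and none was higher. The mean change was negative in 9 of the 10. HAK1 went the other way, with means of 9.12 in KP and 9.86 in KM. The summed intensity of the 10 genes, in which the strongest probe sets weigh most, was 12774 to 14596 in KM against 16894 to 24582 in KP. Of 5 leaf photosynthesis genes 1, RCA, was lower in KM, and their summed intensity was 35408 to 35627 in KM against 47934 to 53555 in KP. Among the markers at or near background were RBCS1 for leaf and 8 of 10 endosperm storage genes, the latter in each group. GLB and GLUA2, placed in the endosperm list by name alone, had means of 9.55 and 6.93 in KP and 9.88 and 6.98 in KM. Their 0h means were lower, at 8.77 and 6.02, and none of the 10 was called in KM against KP. A second probe set of GLUA2 was near background in every group, with means of 2.75 in KP and 3.01 in KM. The part of these root, leaf and endosperm markers in the changes of the cell cycle genes was not tested.

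**Figure D3:**
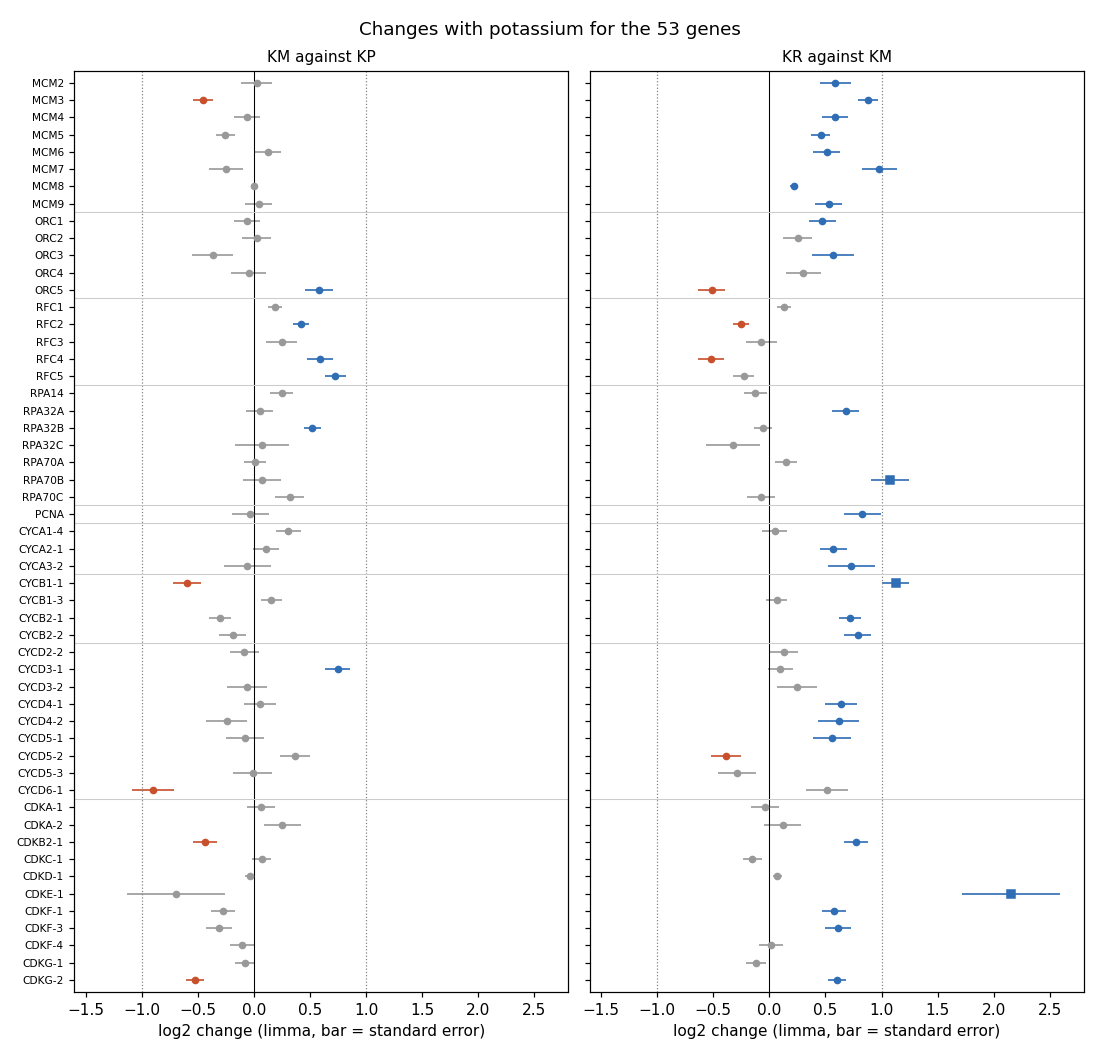
Log2 change with its limma standard error for each of the 53 genes, KM against KP on the left and KR against KM on the right (blue higher and red lower at an adjusted p under 0.05, grey above it; squares also reach 2-fold, dotted lines mark 2-fold). All points on the left lie inside 2-fold, and on the right CYCB1-1, RPA70B and CDKE-1 lie beyond it.

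Resupply for 6 h was followed by higher values of many of these genes, most of them by less than 2-fold. In KR against KM 3 of the 53 genes were called higher and none was lower, where 1.75% of all probe sets were higher and 2.06% were lower (4.47% and 5.15% of those with a group mean of at least 4). At 1.5-fold and an adjusted p under 0.05, 17 genes were higher, against 4.23% of all probe sets and 10% of those with a group mean of at least 4. With the arrays shifted to equal medians 10 genes were higher at this limit, against 3.23% of all probe sets. With no fold limit 26 were higher and 4 were lower, but 36.9% of all probe sets were then higher and 8.69% were lower. The sign alone says little, since the mean was higher in KR in 39 of the 53 genes and in 41704 of the 57194 probe sets. KR and KM arrays did not overlap, with KR higher, in 31 genes and in 52.7% of all probe sets. Whether KR was harvested later in the day than KM is not given in the sources used here, so resupply and hour of the day cannot be told apart.

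CYCB1-1, the mitotic cyclin that was among the genes lower in KM, was called higher. It read 8.08, 7.86 and 7.77 in KR against 6.84, 6.91 and 6.59 in KM. The change was 1.13 ± 0.12, a 2.18-fold rise with an adjusted p of 0.00032 from limma. All KR arrays also lay above the KP arrays, whose highest was 7.56, and below the 0h arrays, whose lowest was 8.82. KR against KP was 0.53 ± 0.12, with an adjusted p of 0.00872 from limma, under 2-fold.

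RPA70B was higher in KR than in either medium. Its KR arrays read 7.53, 7.91 and 8.16, against 6.79, 6.89 and 6.68 in KM. The change from KM was 1.08 ± 0.17 (adjusted p = 0.00148, limma), and the change from KP was 1.15 ± 0.17 (adjusted p = 0.00111, limma). Without KR replicate 3, the highest of the group, the rise from KM was 0.93 and no longer reached 2-fold. No KR array overlapped with KM, KP or 0h.

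CDKE-1, the counterpart of the kinase of the Mediator complex that acts in transcription, had the largest rise. It read 10.41, 10.22 and 10.31 in KR against 7.90, 8.38 and 8.21 in KM, a change of 2.15 ± 0.44 or 4.45-fold (adjusted p = 0.00475, limma). From KP, at 8.86, 9.17 and 8.53, the change was 1.46 ± 0.44 (adjusted p = 0.0253, limma), and this call was lost without KP replicate 1, KP replicate 3 or any KR replicate, the lowest value being 1.29. The 0h arrays were uneven, at 7.51, 7.69 and 9.41. A second probe set read 8.42, 8.18 and 8.27 in KR and 7.67, 7.77 and 7.71 in KM. Its change was 0.57 ± 0.11, a 1.49-fold rise (adjusted p = 0.00317, limma), so both probe sets were higher in KR but by amounts that differ widely.

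**Figure D4:**
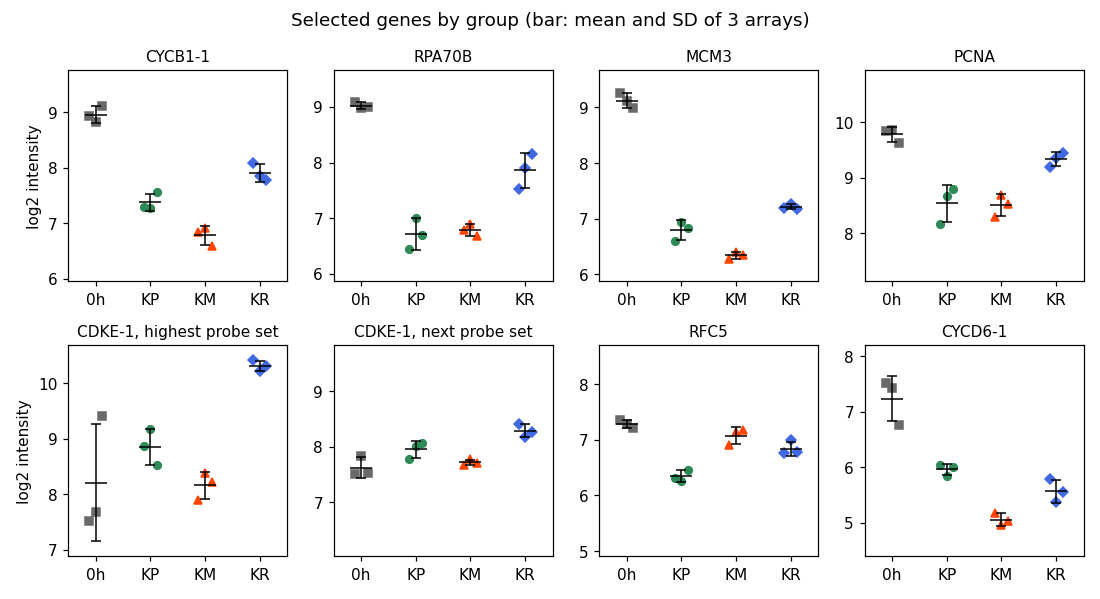
Log2 intensity of every array for 7 genes, with both probe sets of CDKE-1 (y axis spans the same 3.8 log2 units in each panel; symbols are arrays, black bars the mean and SD of 3 arrays). KR arrays of CYCB1-1, RPA70B, MCM3 and PCNA lie between KP and 0h, while the KR mean of RFC5 lies between KP and KM, and CDKE-1 in KR lies above all other groups in both probe sets.

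Genes higher in KR by less than 2-fold included those of the helicase, the clamp and CDKB2-1. All 8 MCM genes were higher in KR with an adjusted p under 0.05. Of all probe sets 36.9% were higher at this limit, or 12% with equal medians. MCM8 and MCM9 were near background in both KM and KR. The class median was 0.56 against 0.04 over all probe sets. MCM3 read 7.20, 7.27 and 7.18 in KR against 6.27, 6.40 and 6.34 in KM, a change of 0.88 ± 0.09 (adjusted p = 0.00026, limma). MCM7 rose by 0.98, and the change of MCM8, 0.22, took place near background. PCNA read 9.20, 9.36 and 9.45 in KR, a rise of 0.83 ± 0.17 (adjusted p = 0.00444, limma), and stood 0.80 above KP. CYCB2-2 rose by 0.79, CDKB2-1 by 0.77 and CYCA3-2 by 0.73, each under 2-fold.

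Among the clamp loader genes the values in KR were mostly lower. RFC2 and RFC4 fell in KR by 0.25 and 0.52 with an adjusted p under 0.05 in limma, and the class median was -0.23. RFC4 read 6.21, 6.59 and 6.39 in KR, 1 array below and 2 above the KP arrays at 6.26 to 6.37, so that KR and KP overlapped. ORC5 fell by 0.51, to a KR mean near background, and CYCD5-2 by 0.38. A second probe set of CYCD5-2 did not fall, with means of 5.15 in KM and 5.43 in KR and overlapping groups. ORC2 changed by 0.25 ± 0.13, which did not pass (adjusted p = 0.142, limma), with 1 KR array at 7.50 above all others of that gene. CYCD3-1 read 8.40, 8.48 and 8.47 in KR, 8.38, 8.42 and 8.26 in KM and 7.60, 7.67 and 7.55 in KP. It was 0.84 ± 0.11 higher in KR than in KP (adjusted p = 0.000704, limma), and KR and KM overlapped.

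Set against seedlings that never lacked potassium, KR had 2 of the 53 genes called higher, RPA70B and CDKE-1, and none lower, where 1.15% of all probe sets were higher and 2.06% were lower (2.92% and 5.2% of those with a group mean of at least 4). At 1.5-fold 12 genes were higher, against 3.93% of all probe sets and 9.11% of those with a group mean of at least 4. With equal medians 7 were higher at this limit, against 2.67% of all probe sets. With no fold limit 26 were higher, where 36.7% of all probe sets were, and none was lower. Of the 25 genes that were lower in both KP and KM than in 0h, 22 had a KR mean above both, or 88%, whereas 63% of the 2404 probe sets with the same falls did. In 18 of the 25, or 72%, all 3 KR arrays lay above all 6 KP and KM arrays, against 32.7% of those probe sets. The KR mean was below the 0h mean in all 25, as it was in 2391 of the 2404 probe sets. This count was made after the values were seen and has no test.

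Among other genes of DNA synthesis some were lower too. Of 7 polymerase and fork genes 3 were lower in KP than in 0h and 1 was higher. POLD1, the catalytic subunit of DNA polymerase delta, read 7.08, 7.04 and 6.88 in 0h and 4.78, 4.73 and 4.62 in KP, a change of -2.29 ± 0.09. In KM it stood at 5.39, 5.30 and 5.17, higher than in KP by 0.58 ± 0.09 (adjusted p = 0.00435, limma). TOP6B, a subunit of topoisomerase VI, changed by -1.25 in KP against 0h and POLD2 by -1.64. TK, the thymidine kinase gene, changed by -0.46 and was not called.

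TOP6A, the other topoisomerase VI subunit, was the gene that was higher. It read 8.38, 8.98 and 8.35 in KP against 6.78, 6.89 and 6.78 in 0h, 6.09, 6.84 and 6.61 in KM and 6.24, 7.10 and 6.47 in KR. It was thus high only in the KP arrays, with no overlap, and KM against KP was -2.06 ± 0.27 (adjusted p = 0.00159, limma). It was the only 1 of the 7 called in KM against KP, a call that the test of the study's methods did not make, and it was also lower in KR than in KP, at -1.97. In KR against KM none of the 7 was called.

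RBR1, the retinoblastoma-related protein that holds back the E2F factors of S phase, moved in the same directions as the MCM genes. It read 6.97, 7.00 and 6.77 in 0h, 4.32, 4.60 and 4.65 in KP, 4.37, 4.75 and 4.21 in KM, and 5.41, 5.15 and 5.82 in KR. The change was -2.39 ± 0.19 in KP against 0h and 1.01 ± 0.19 in KR against KM (adjusted p = 0.00321, limma). The latter call lay at the 2-fold limit and was lost without KM replicate 1, KM replicate 3 or KR replicate 3, with changes of 0.98, 0.89 and 0.83. A second RBR1 probe set was near background throughout. RBR2 changed by -0.74 in KP against 0h and by -0.14 in KR against KM, neither of them called.

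Among genes matched by name alone as inhibitors or activators of the kinases, none was called higher in KP against 0h. Of 9 such genes 3 were lower in KP than in 0h, the inhibitor genes KRP5, KRP6 and SMR1, at -1.13, -1.15 and -1.97. The 0h arrays of SMR1 were uneven, at 7.22, 7.01 and 8.90. EL2, a CDK inhibitor gene of the SIAMESE type, separated the media. It read 10.50, 11.03 and 10.98 in KM against 12.39, 12.24 and 11.64 in KP, a change of -1.25 ± 0.21 (adjusted p = 0.00537, limma), and was the only 1 of the 9 called, although not by the test of the study's methods. On a second probe set the change was -1.09 ± 0.30 and did not pass (adjusted p = 0.0515, limma). On its first probe set EL2 read much the same in KR as in KM, at 11.20, 10.85 and 11.01. It was lower in KR than in KP by 1.07 on the log2 scale. That call was lost without KP replicate 1, KP replicate 2 or KR replicate 2. On the second probe set the means were 7.72 in KM, 8.29 in KR and 8.81 in KP, and KR overlapped with both. CDC25.1 was higher in KM than in 0h by 1.25 ± 0.05, reading 10.70, 10.76 and 10.68 against 9.38, 9.57 and 9.44. In KR against KM none of the 9 was called.

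Of 10 cyclins of other types none was called in KP against 0h. In KM against 0h 2 were lower, CYCP2-1 at -1.48 ± 0.27 (adjusted p = 0.00244, limma) and CYCP4-1 just past the 2-fold limit, where 5.94% of all probe sets were. CYCP2-1 was also called in KM against KP. This P-type cyclin read 4.51, 5.62 and 5.34 in KM and 6.21, 6.35 and 6.55 in KP, a change of -1.22 ± 0.27 (adjusted p = 0.0221, limma). Without KM replicate 1, its lowest array, the change was -0.89, and the call was also lost without KP replicate 2 or 3. The test of the study's methods made neither call of CYCP2-1. CYCH-1, a partner of the CDK-activating kinase, changed by -0.61 in KP against 0h and by 0.58 in KM against KP, and CYCL1-1, a cyclin tied to splicing, by 0.27 in KP against 0h, all under 2-fold. CENH3, the histone of centromeres, fell with the replication genes, from 7.92, 7.91 and 8.05 in 0h to 6.15, 6.44 and 6.36 in KP, a change of -1.64 ± 0.10, and was 0.53 higher in KR than in KM. Of 4 histone H2B genes H2B.10 was called lower in KP, at -1.12 ± 0.16, and H2B.11 changed by -0.24. The call for H2B.10 was lost without 0h replicate 1 or KP replicate 1, where the fall was just short of 2-fold.

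Genes of both root and leaf were measured, with LSI1 of the root at 8.32 or more and CAB2R of the leaf at 13.46 or more on all arrays, while RBCS1 of the leaf was near background in every group and SCR1 of the root was near background in KR. Markers of tissues also moved between 0h and the later groups. Of 10 root marker genes 6 were higher in KP than in 0h, with a summed intensity of 9657 to 10884 in 0h and 16894 to 24582 in KP. Of the root patterning genes among the 10, SCR1 changed by -0.93 ± 0.16 (adjusted p = 0.00145, limma), under 2-fold, and SHR1 by -0.44 ± 0.17, which did not pass (adjusted p = 0.103, limma). SCR1 was called lower in KM against 0h, at -1.05. The leaf genes had 1 of 5 higher, with sums of 35526 to 38308 in 0h and 47934 to 53555 in KP. Of 10 endosperm storage genes RAG2, near background, was called higher in KP against 0h. GLB, placed in this list by name alone, was called higher in KM against 0h, at 1.11. Among 8 KNOX homeobox genes, HOS59 and HOS16 were higher in KP at 1.98 and 1.45 and HOS66 was lower at -1.01, while HOS13 and OSH43 were near background. Not all KNOX genes mark the meristem, since HOS59 and HOS66 belong to a class expressed more widely. OSH1, expressed in the shoot meristem, read 6.85, 7.12 and 7.18 in 0h and 6.45, 6.02 and 6.06 in KP, a change of -0.87 ± 0.13 that was under 2-fold. The sums in KR were 18369 to 20952 for root and 51236 to 52371 for leaf genes. No root gene was called in KR against KM, and their mean log2 level was 8.69 to 8.80 in KR and 8.40 to 8.72 in KM, which overlapped. In KR against KP 4 of 10 root genes and 1 of 5 leaf genes were lower. Their part in the changes of the replication genes was not tested.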

How the data were processed

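RNA of whole seedlings was hybridized to 12 Affymetrix rice arrays, 3 per group. The deposited intensity values are GCRMA signals on a linear scale, which the authors computed in ArrayAssist. The submitters' processing notes name GCOS 1.2.1. GCRMA pulls weak probe sets towards a common low value, so changes near background are compressed. Groups follow titles and source names. A treatment tag of the 0h samples gives the deficient medium instead, and they were kept as 0h.

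Values were floored at 1 before log2, which altered 0 of them. Of 57381 probe sets, 123 and 64 controls were left out. limma 3.58.1 in R 4.3.3 fitted 1 mean per group over all 12 arrays, with Benjamini-Hochberg adjustment over 57194 probe sets. The number of arrays limits the precision. The fit was tested on simulated data. Names came from the array annotation (22436 probe sets with 1 gene, 95 with several, 34663 with none) and RefSeq. CYCB1-1 is also a synonym of the gene called CYCB1-3 here.

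Values are given for members called in KM against KP, KR against KM or KR against KP, for the largest called fall and rise and the smallest change of each class in KP against 0h, and for pathway genes called in those comparisons or with the smallest adjusted p of their list. Others were chosen after their values were seen. Pathway lists and markers were matched by symbol. No gene of helicase loading (CDC6, CDT1, CDC45, GINS) matched. The members and lists were chosen with earlier results of these data known. Alternatives were quantile normalization, equal medians, other fold limits, no low-signal probe sets, the next probe set, a 2-group fit, the methods' t-test, a replicate block and leaving out each array.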

Additional observations from a re-analysis of the deposited data

Results flagged for a closer look

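For 3 genes of the wider pathway, the change from 0h to KM differed from the change from 0h to KP, tested as KM against KP in limma. For TOP6A, a topoisomerase VI subunit, the difference was -2.06 ± 0.27 (adjusted p = 0.00159), with all 3 KM arrays below all 3 KP arrays. For EL2, a CDK inhibitor gene, it was -1.25 ± 0.21 (adjusted p = 0.00537, limma), again in all 3 arrays. A second probe set of EL2 gave -1.09 ± 0.30 with an adjusted p of 0.0515 from limma, which did not pass. For CYCP2-1, a P-type cyclin gene, it was -1.22 ± 0.27 (adjusted p = 0.0221, limma), also in all 3 arrays. The test of the study's methods did not make any of these 3 calls. None of the 53 replication and cell cycle genes differed in this way at 2-fold.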

How the results depend on the processing

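With 3 arrays per group and whole seedlings, changes under 2-fold are where the counts are least settled. Genes higher in KP against 0h numbered 1, but 2 with quantile normalization, equal medians or a 1.5-fold limit under any scaling, and 3 with no fold limit under any scaling. Those higher in KM against 0h numbered 1, but 0 with quantile normalization, where CYCD5-1 changed by 0.98. They numbered 2 at 1.5-fold under any scaling, 3 with no fold limit, and 4 with quantile normalization and no fold limit. In KM against KP, where none was called, 2 were lower and 3 higher at 1.5-fold, but 2 and 2 at 1.5-fold with quantile normalization or equal medians. With no fold limit 5 were lower and 6 higher under any scaling. In KR against KM the 3 higher genes became 17, 18 and 10 at 1.5-fold as deposited, with quantile normalization and with equal medians, and 26, 26 and 24 with no fold limit. Of all probe sets 4.23%, 4.04% and 3.23% were then higher, and 36.9%, 16.6% and 12%. Lower genes numbered 4, 3 and 6 with no fold limit, against 8.69%, 10.7% and 38% of all probe sets, and 2 at 1.5-fold with equal medians, against 5.96%. In KR against KP the 2 higher genes became 12, 12 and 7 at 1.5-fold, 26, 22 and 20 with no fold limit, and 1 with the next probe set. Of all probe sets 3.93%, 3.59% and 2.67% were then higher, and 36.7%, 17.1% and 12% with no fold limit. With equal medians and no fold limit 2 were lower, against 38.5% of all probe sets. The scalings joined to a fold limit were chosen after seeing the data.

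Leaving out each array in turn gave 26 to 30 lower and 1 to 2 higher genes in KP against 0h, 25 to 27 and 0 to 1 in KM against 0h, none in KM against KP, 2 to 4 higher in KR against KM and 1 to 2 in KR against KP. CYCD5-1 in KM against 0h was lost without 0h replicate 3, at 0.94, and without that array CDKE-1 was called in KP against 0h, at 1.26. The next probe set reversed CYCD5-2, to -1.10 in KP against 0h and -1.03 in KM against 0h. RPA70B in KR against KM was 0.98 and RBR1 0.92 with equal medians, both under 2-fold. With equal medians 21 of the 25 genes lower in KP and KM had a KR mean above both, or 84% against 50% of all such probe sets. The methods' t-test lost the calls of TOP6A, EL2 and CYCP2-1 in KM against KP and of RBR1 in KR against KM, and a fit of only KM and KP lost EL2 and CYCP2-1. The causes were not tested. Arrays with the same replicate number did not clearly deviate together (r = -0.11 to 0.16 over 18 pairs, 3 of them over 0.1). Arrays with different numbers gave r = -0.20 to 0.19 over 36 pairs, 5 of them over 0.1. No pairing was used in the main fit, and such weak correlations cannot show that none existed. With the replicate number as a block the calls of the 53 genes stayed at 28 lower and 1 higher in KP against 0h, 26 and 1 in KM against 0h, 0 in KM against KP, 3 higher in KR against KM and 2 higher in KR against KP.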
